A study of Mus musculus with 10 samples.

Results

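The translation initiation factor genes are those whose symbol starts with Eif followed by a factor number from 1 to 6. They were taken from probe sets with a single gene symbol, and the brightest probe set stood for each gene. The eIF2 kinases, the eIF4E-binding proteins and Eif2s1, Eif2s3x and Eif2s3y were set aside. This gave 44 genes of 22180 measured: 5 with factor number 1, 9 with number 2, 12 with number 3, 13 with number 4, 4 with number 5 and 1 with number 6. The naming rule reads no measured value, brightness decided between probe sets of a gene, and earlier results of these data were known when the set was proposed. By RefSeq 42 of them code for protein. Eif1-ps3 is a pseudogene. Eif2c5 carries a number left from the old naming of the Argonaute genes and is not an initiation factor. Eif4a3l1 is a near copy of Eif4a3, so probes of the pair may read both. Counts are given over all 44 genes, and 41 remained without those last 3. Eif1, Eif3g and Eif4g1 were not analysed here.

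RNA came from cortical neurons of mouse embryos at embryonic day 14.5 to 15.5, cultured in supplemented Neurobasal medium and treated on day 7 in vitro for 12 hours. Wildtype neurons gave 2 vehicle and 4 arsenite arrays and ATF4-deficient neurons gave 2 of each, with sodium arsenite at 5 µM. ATF4 is the transcription factor that stressed cells make when eIF2 is phosphorylated. The labels call the arrays biological replicates and do not say whether embryos, litters or cultures were separate, nor which Atf4 allele, which embryonic sex or how many embryos each array holds. The Y-linked gene Eif2s3y read 8.68 and 5.68 in wildtype vehicle, 8.66, 8.30, 8.47 and 4.99 in wildtype arsenite, and in ATF4-deficient neurons 5.44 and 8.99 with vehicle and 5.00 and 9.29 with arsenite. Each group thus held high and low arrays, which were not repeats of 1 RNA sample. Among wildtype arsenite replicates 1 to 3 this gene sets none apart, and the spread there may be technical. Every p-value rests on how these 10 arrays vary.

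Initiation assembles a ribosome at the start codon of an mRNA. The eIF4 factors bind the cap and unwind the leader, eIF2 brings the initiator tRNA as a complex with GTP, and eIF3, eIF1 and eIF1A hold the small subunit open for scanning. On start codon recognition eIF5 triggers GTP hydrolysis by eIF2, eIF5B joins the large subunit, and eIF2B reloads eIF2 with GTP. Stress kinases phosphorylate eIF2, which then blocks eIF2B and slows initiation on most mRNAs. Arsenite is a textbook activator of this pathway, and these arrays read mRNA levels only, not factor proteins or their phosphorylation.

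The 250 bases upstream of the RefSeq transcription start are shown for Eif5, which was the only gene of the 44 to pass the test, and for Eif3c and Eif2d, which had among the largest wildtype responses in each direction. They come from RefSeq on GRCm38.p6 and are written 5′ to 3′ on the gene's strand, and capitals mark matches to TGACG or TGACNNNGC on either strand. The windows are chr12:111537851-111538100 on the plus strand for Eif5, chr7:126566367-126566616 on the minus strand for Eif3c and chr1:131152957-131153206 on the plus strand for Eif2d.
Eif5: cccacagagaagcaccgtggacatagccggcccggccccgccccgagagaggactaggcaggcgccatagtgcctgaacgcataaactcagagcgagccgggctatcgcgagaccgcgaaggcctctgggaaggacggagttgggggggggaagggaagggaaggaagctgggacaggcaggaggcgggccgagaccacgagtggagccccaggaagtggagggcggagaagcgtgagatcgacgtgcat
Eif3c: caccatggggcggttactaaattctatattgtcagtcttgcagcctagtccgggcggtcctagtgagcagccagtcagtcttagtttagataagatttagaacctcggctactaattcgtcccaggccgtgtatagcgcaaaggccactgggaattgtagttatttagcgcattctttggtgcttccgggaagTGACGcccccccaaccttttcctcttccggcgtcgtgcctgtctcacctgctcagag
Eif2d: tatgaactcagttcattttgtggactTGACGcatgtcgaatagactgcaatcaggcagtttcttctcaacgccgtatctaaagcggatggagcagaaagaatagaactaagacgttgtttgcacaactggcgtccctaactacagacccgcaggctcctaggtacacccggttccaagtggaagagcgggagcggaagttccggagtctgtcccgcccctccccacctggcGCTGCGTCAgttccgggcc

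In these windows 3 motifs were searched on both strands: TGATGNAA, the core of the element bound by C/EBP and ATF4 dimers, TGACG, a cAMP response element half-site, and TGACNNNGC, the core of the antioxidant response element. A window was found for 34 of the 44 genes and for 27025 genes in all. The first motif was in 0 of the 34 windows, against 3.91% of all genes and 3.64% of 17492 protein-coding genes. TGACG was in 18 of 34 (52.9%), against 19.8% of all genes and 22.6% of protein-coding genes. It lies 57 bases before the start in Eif3c, and 224 and, on the reverse strand, 15 bases before it in Eif2d. TGACNNNGC was in 5 of 34 (14.7%), in Eif2d, Eif3a, Eif3j1, Eif5a and Eif5a2, against 11.5% of all genes and 12% of protein-coding genes. In Eif2d the reverse matches to TGACNNNGC and TGACG overlap. The Eif5 window held none of the 3. Of the 3 motifs only TGATGNAA was in the plan of the analysis. A match is a string of letters and not a measured binding site, and no test was made on these shares. The shares were not adjusted for base composition or for the number of windows per gene.

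All 10 neuron markers lay above the dim reference described below, and their mean per array was 10.18 to 10.39 on the log2 scale. Of them Tubb3 was lower (-0.44, limma adjusted p = 0.0123) and Nefl higher (0.49, adjusted p = 0.0347) with genotype averaged over treatments. Atf4 fell by 1.92 on the log2 scale with genotype, averaged over treatments (SE 0.12, limma adjusted p = 9.65e-05), from 9.09 to 9.91 on the wildtype arrays to 7.48 to 7.70 on the ATF4-deficient arrays. The mean over 10 astrocyte markers was 8.07 and 8.31 in wildtype vehicle, 7.50 to 8.01 in wildtype arsenite, and, in ATF4-deficient neurons, 7.14 and 7.47 with vehicle and 7.06 and 7.40 with arsenite. Of these 10 markers 5 were lower at an adjusted p under 0.05 in limma with genotype averaged over treatments. By their mean over all 10 arrays, 2 lay below the dim reference. In RNA of whole cultures, fewer cells of a type and less RNA per cell cannot be told apart, and the part of these markers in the results below was not tested. One array, replicate 2 of ATF4-deficient arsenite, had a first principal component score of 29.4, and the scores of the other 9 ran from -18.2 to 8.7.

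The levels of the initiation factor genes differed little between the groups. All values are on the log2 scale, where a difference of 1 is a 2-fold change. The 7 comparisons set arsenite against vehicle within either genotype and the ATF4-deficient against the wildtype neurons under either treatment, and add the difference of the arsenite responses (the interaction), and the arsenite and genotype differences averaged over the other factor. A gene passed at an adjusted p under 0.05 in limma, over all genes. The 95% interval of the difference lay within a 2-fold change in either direction (1 on the log2 scale) for all 44 genes in 6 of the 7 comparisons and for 43 in the interaction, where Eif5b was the exception (-0.25 to 1.03). Intervals this narrow were usual on these arrays: the median SE over all genes in a comparison was 0.08 to 0.17, and over the 44 genes also 0.08 to 0.17. The median SD within groups was 0.13 for the 44 genes and 0.13 for all genes. The median range of the 4 group means was 0.22 for both. Eif2b1 had the smallest SD within groups of the 44 genes, at 0.04, and Eif5b was the only one whose values spanned over 1 on the log2 scale, from 8.50 to 9.60. Eif4e1b (mean 5.86), Eif2c5 (6.48) and Eif2b4 (6.53) lay below 6.64, the level under which 90% of olfactory and vomeronasal receptor genes fell. The change of such dim genes can be understated.

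**Figure D1:**
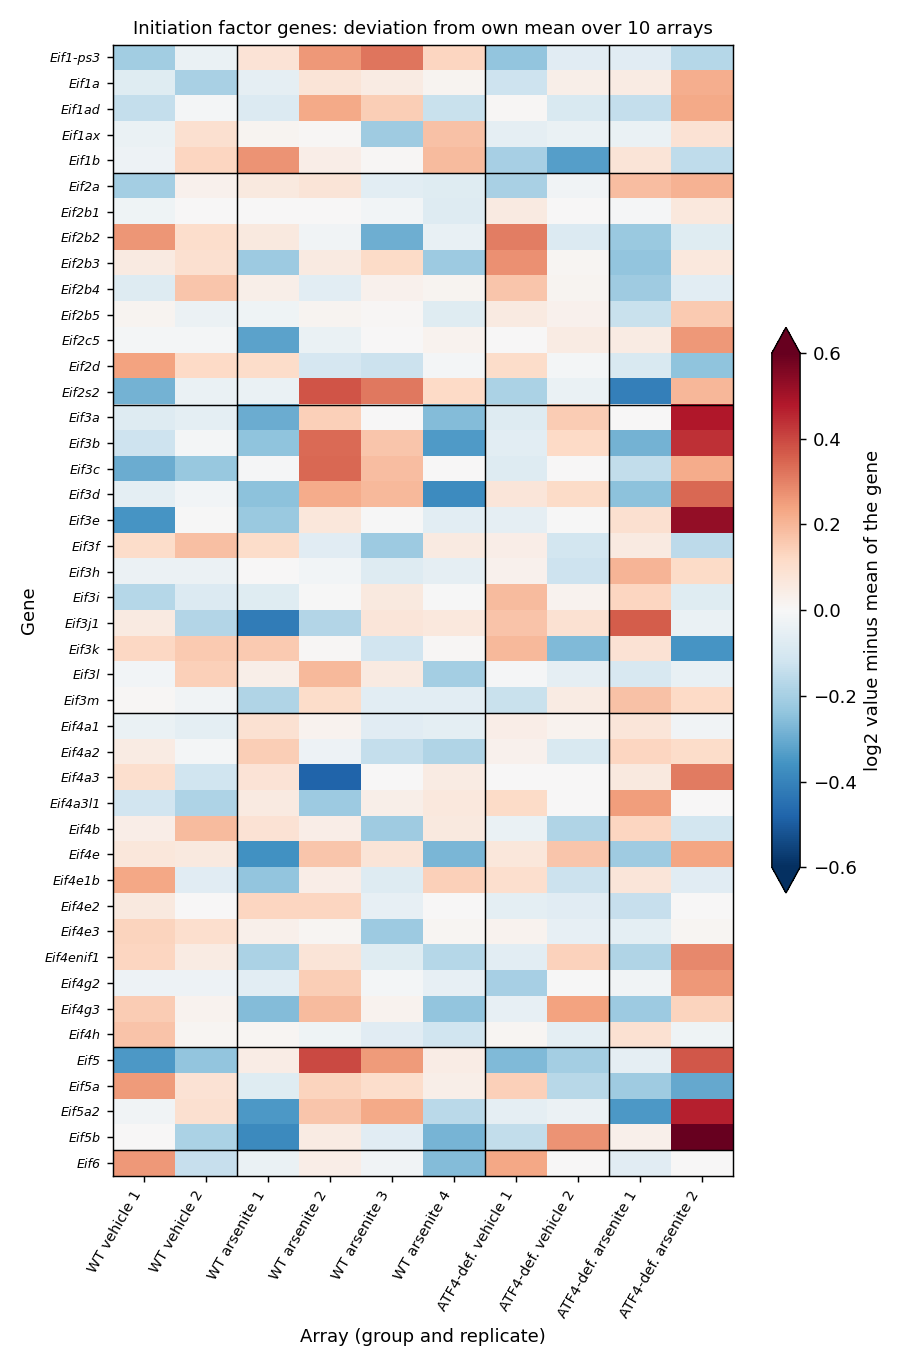
Deviation of each initiation factor gene (rows, in order of factor number, with lines between the groups) from its own mean over 10 arrays (columns), in log2 units. Most cells are pale, and ATF4-deficient arsenite replicate 2 holds the darkest red cell, for Eif5b.

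One gene passed the test in the 7 comparisons made. Eif5 encodes the GTPase-activating protein of eIF2 that commits the ribosome to a start codon. It read 9.83 and 9.94 in wildtype vehicle, 10.22, 10.57, 10.43 and 10.22 in wildtype arsenite arrays, and 9.91 and 9.97 with vehicle and 10.12 and 10.55 with arsenite in ATF4-deficient neurons. Every arsenite array lay above every vehicle array. Averaged over genotypes it rose 1.35-fold with arsenite (0.43 log2, SE 0.10, 95% interval 0.21 to 0.66, limma adjusted p = 0.045). That was 1 of 44 genes, while 3.07% of all genes passed in that comparison and 1.65% passed as higher. The share is near the background.

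The Eif5 difference was 0.47 in wildtype neurons (SE 0.13, adjusted p = 0.181) and 0.39 in ATF4-deficient neurons (SE 0.15, adjusted p = 0.326), and neither passed alone. Over the alternatives the latter moved between 0.18 and 0.61. The 2 responses differed by -0.08 (95% interval -0.53 to 0.37, adjusted p = 0.964), and over the alternatives by -0.29 to 0.13, so this difference changed sign. Between genotypes Eif5 differed by 0.05 under vehicle and by -0.03 under arsenite. The call lay near the threshold, and fits with 1 array fewer have fewer degrees of freedom. It was lost without any 1 of 8 arrays: either wildtype vehicle array, wildtype arsenite replicate 1, 2 or 3, either ATF4-deficient vehicle array, or ATF4-deficient arsenite replicate 2 (differences 0.33 to 0.46, adjusted p 0.0509 to 0.161). It was also lost with array medians made equal (0.44, adjusted p = 0.0683). Leaving out wildtype arsenite replicate 4 (adjusted p = 0.0473) or replicate 1 of ATF4-deficient arsenite (0.54, adjusted p = 0.0227) kept the call. In the same comparison 10 of 10 astrocyte markers had differences below 0, and Gfap passed (-0.37, adjusted p = 0.0403). Of the oligodendrocyte lineage markers 8 of 8 were below 0, and Pdgfra passed (-0.59, adjusted p = 0.0152). Of all genes 44.9% lay above 0 there. The part of these markers in the Eif5 difference was not tested.

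**Figure D2:**
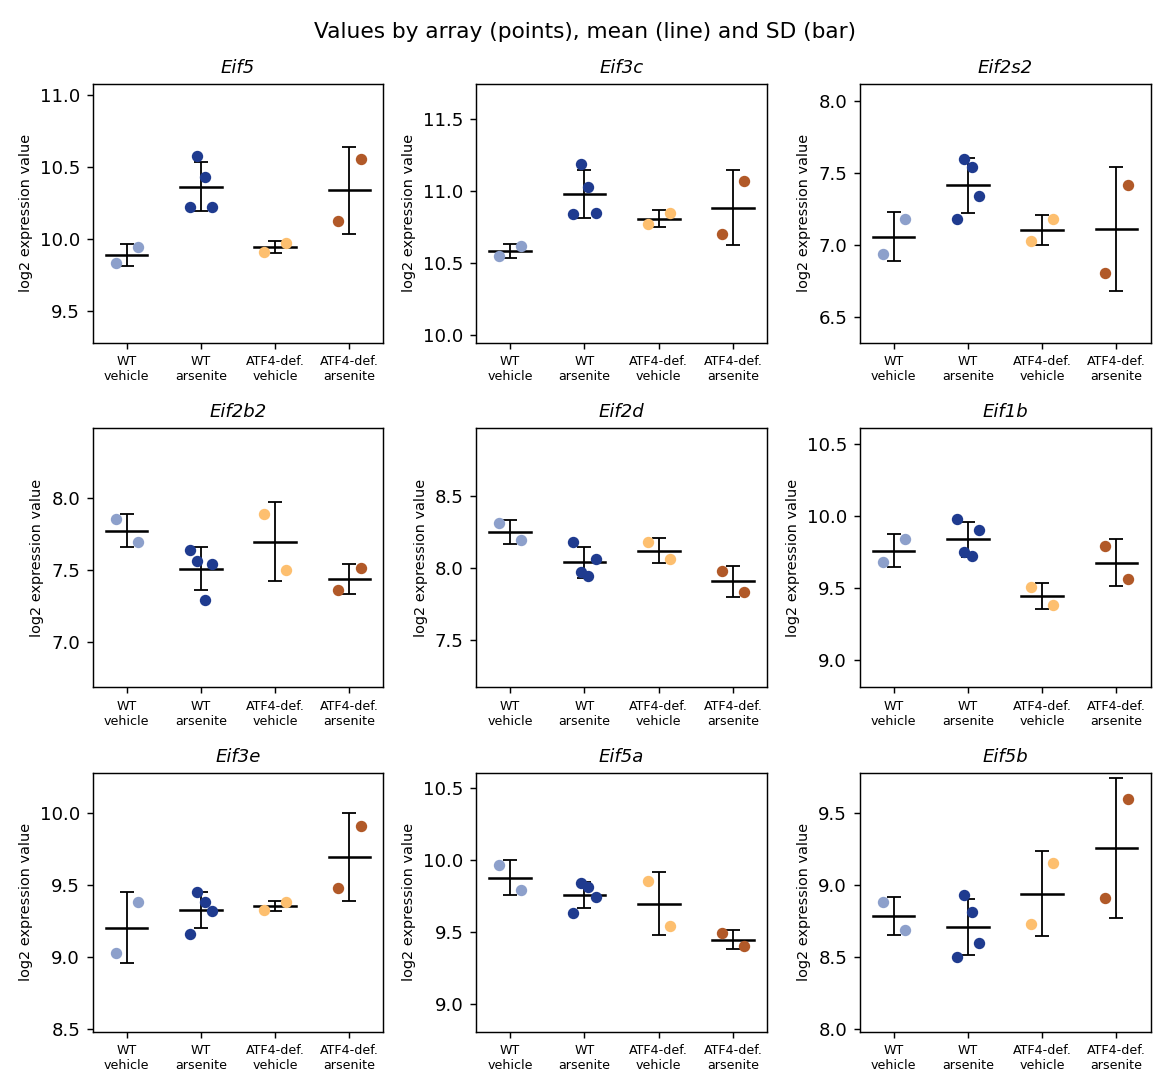
Values on the log2 scale of 9 initiation factor genes in the 4 groups, with 1 point per array, the group mean as a line and the SD as a bar (n = 2, 4, 2 and 2 arrays). In the Eif5 panel the 6 arsenite points lie between 10.12 and 10.57 and the 4 vehicle points between 9.83 and 9.97.

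None of the 44 genes passed for arsenite in wildtype neurons, where 0.482% of all genes did. At an unadjusted p under 0.05 there were 4, Eif1-ps3, Eif2d, Eif3c and Eif5 (9.09%, against 10.9% of all genes). The 2 groups did not overlap for 9 of the 44, against 20.6% of all genes. The median difference was -0.04, with all genes at -0.02. For arsenite in ATF4-deficient neurons 0 passed, against 1.15% of all genes. There 3 genes reached an unadjusted p under 0.05, Eif2a, Eif3h and Eif5 (6.82%, against 12%), and 12 did not overlap between the groups (38.8% of all genes).

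For genotype under vehicle 0 of 44 passed, against 0.433% of all genes, and Eif1b alone reached an unadjusted p under 0.05 (10.9% of all genes did). Groups of 2 arrays each did not overlap for 18 of the 44, against 42.5% of all genes. For genotype under arsenite 0 passed, against 0.343%. There 6 reached an unadjusted p under 0.05 (13.6%, against 12.1%), with Eif3a, Eif3e, Eif3h and Eif5b above 0 and Eif1-ps3 and Eif5a below, and 8 did not overlap (18.5% of all genes). For genotype averaged over treatments 0 passed, against 1.82%, and 5 reached an unadjusted p under 0.05 (11.4%, against 16.3%). Only Eif2c5 showed no overlap between the genotypes, in the same direction within each treatment, against 6.86% of all genes. The interaction gave 0 calls among the 44 and among all genes, and 0 of the 44 reached an unadjusted p under 0.05, where 6% of all genes did.

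Averaged over genotypes, arsenite gave an unadjusted p under 0.05 for 9 of the 44 genes (20.5%, against 16.1% of all genes). Eif5, Eif1-ps3, Eif1a, Eif2a, Eif3c and Eif3e lay above 0, and Eif2b2, Eif2d and Eif5a below. Arsenite and vehicle arrays did not overlap, in the same direction within each genotype, for 3 of the 44, Eif1a, Eif2d and Eif5, against 8.47% of all genes.

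**Figure D3:**
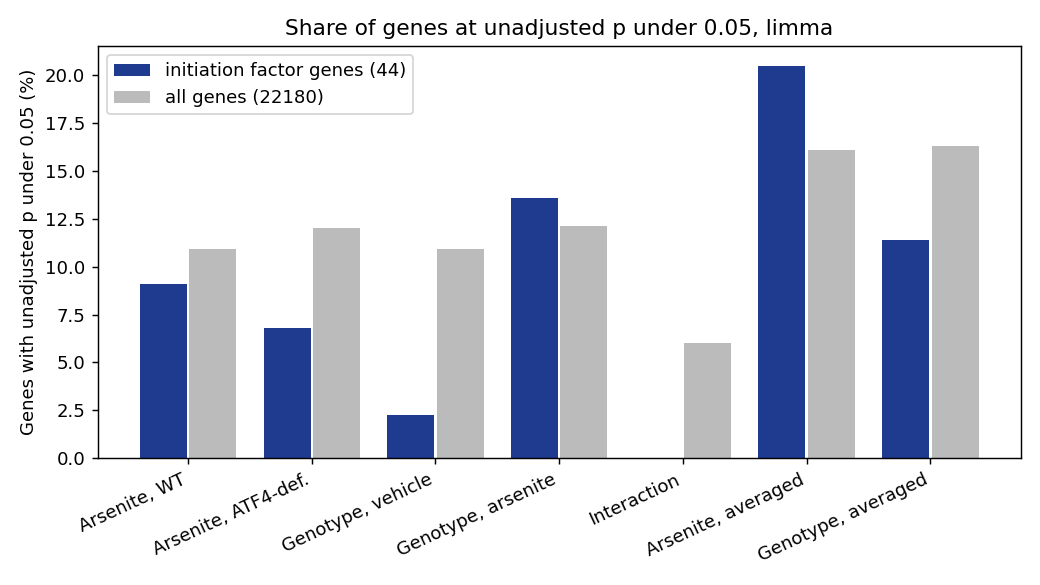
Percentage of the 44 initiation factor genes (blue) and of all 22180 genes (grey) with an unadjusted limma p under 0.05 in each of the 7 comparisons. The blue bar is the taller for genotype under arsenite (13.6% against 12.1%) and for arsenite averaged over genotypes (20.5% against 16.1%), and the interaction has no blue bar.

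**Figure D4:**
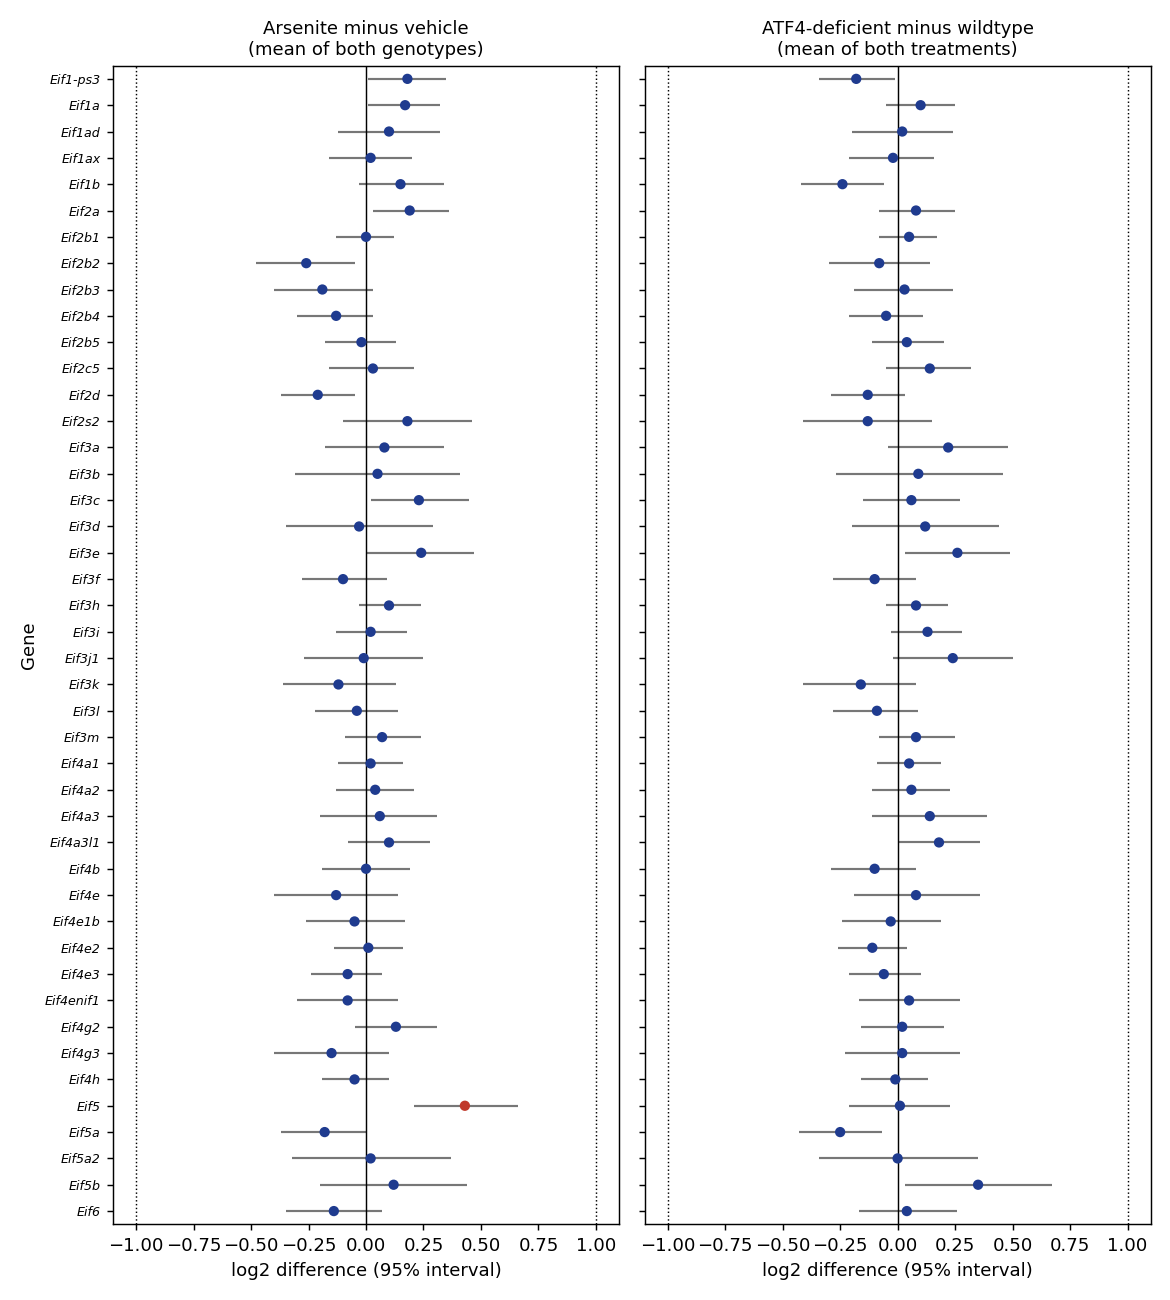
Log2 difference of each of the 44 genes with its 95% interval, for arsenite minus vehicle (left) and ATF4-deficient minus wildtype (right), each averaged over the other factor. The red point is Eif5, at 0.43, the only gene past the adjusted threshold, and every interval stays between the dotted lines at a 2-fold change.

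The factors eIF1 and eIF1A guard start codon choice. The means of the 5 genes with number 1 ran from 8.27 for Eif1ad to 9.71 for Eif1b. Levels of different probes show no order of abundance. All 5 had differences above 0 for arsenite averaged over genotypes, between 0.02 and 0.18, and none passed. Of all genes 44.9% lay above 0 there. Eif1b, a paralog of eIF1, read 9.68 and 9.84 in wildtype vehicle, 9.98, 9.75, 9.72 and 9.90 in wildtype arsenite arrays, and 9.51 and 9.38 with vehicle and 9.79 and 9.56 with arsenite in ATF4-deficient neurons. Under vehicle both ATF4-deficient arrays lay below both wildtype arrays (-0.32, SE 0.13, adjusted p = 0.374). Under arsenite the groups overlapped (-0.17, adjusted p = 0.57). Its averaged genotype difference was -0.24 (95% interval -0.42 to -0.06, adjusted p = 0.179).

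The pseudogene Eif1-ps3 can share probes with its parent gene, so its values may hold both. It read 8.48 and 8.65 in wildtype vehicle, 8.77, 8.95, 9.01 and 8.82 in wildtype arsenite arrays, and 8.45 and 8.62 with vehicle and 8.62 and 8.52 with arsenite in ATF4-deficient neurons. The 4 wildtype arsenite arrays lay above all other arrays. The arsenite difference was 0.32 in wildtype (SE 0.10, adjusted p = 0.237) and 0.03 in ATF4-deficient neurons (adjusted p = 0.948), and the interaction of -0.29 did not pass (adjusted p = 0.845).

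Number 2 covers Eif2s2, the beta subunit of eIF2, the 5 subunits of its exchange factor eIF2B, and Eif2a and Eif2d, which encode separate proteins that can deliver tRNA to the ribosome. Means ran from 6.48 for Eif2c5 to 9.06 for Eif2a. Eif2s2 read 6.94 and 7.18 in wildtype vehicle, 7.18, 7.60, 7.54 and 7.34 in wildtype arsenite arrays, and 7.03 and 7.18 with vehicle and 6.81 and 7.42 with arsenite in ATF4-deficient neurons. The 2 ATF4-deficient arsenite arrays were the lowest and among the highest of the series. The arsenite difference was 0.35 in wildtype (SE 0.17, adjusted p = 0.478) and 0.01 in ATF4-deficient neurons (adjusted p = 0.993), with an interaction of -0.34 (95% interval -0.90 to 0.22).

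For arsenite averaged over genotypes 5 of 5 eIF2B genes had differences at or below 0, between -0.26 and -0.00. Of all genes 44.9% lay above 0 there. None of the 5 passed the adjusted threshold, and 1 had an unadjusted limma p under 0.05. Eif2b2, the beta subunit, read 7.85 and 7.69 in wildtype vehicle, 7.64, 7.56, 7.29 and 7.54 in wildtype arsenite arrays, and 7.89 and 7.50 with vehicle and 7.36 and 7.51 with arsenite in ATF4-deficient neurons. Arsenite lay below vehicle without overlap in wildtype neurons, and the groups overlapped in ATF4-deficient neurons. The differences were -0.27 (SE 0.13, adjusted p = 0.498) and -0.26 (SE 0.15, adjusted p = 0.539). Eif2d read 8.31 and 8.19 in wildtype vehicle, 8.18, 7.97, 7.94 and 8.06 in wildtype arsenite arrays, and 8.18 and 8.06 with vehicle and 7.98 and 7.83 with arsenite in ATF4-deficient neurons. Arsenite lay below vehicle within each genotype. The difference was -0.21 in each (SE 0.10 and 0.11, adjusted p = 0.452 and 0.497), and -0.21 averaged did not pass (adjusted p = 0.171).

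The eIF3 complex is the largest initiation factor and the scaffold of the scanning ribosome. Its 12 genes had means from 7.54 for Eif3j1 to 10.85 for Eif3c. For arsenite 7 of 12 averaged differences were above 0 (median 0.03), against 44.9% of all genes. For genotype 9 of 12 were above 0 (median 0.09), against 54.6%, and 0 passed the threshold in any comparison. Eif3c, a core subunit, read 10.55 and 10.62 in wildtype vehicle, 10.84, 11.19, 11.03 and 10.85 in wildtype arsenite arrays, and 10.77 and 10.85 with vehicle and 10.70 and 11.07 with arsenite in ATF4-deficient neurons. Both wildtype vehicle arrays lay below the other 8. The arsenite difference was 0.39 in wildtype (SE 0.13, adjusted p = 0.255) and 0.08 in ATF4-deficient neurons (adjusted p = 0.894). The interaction of -0.31 did not pass (95% interval -0.74 to 0.11, adjusted p = 0.874).

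Eif3e encodes another eIF3 subunit. It read 9.03 and 9.38 in wildtype vehicle, and 9.16, 9.45, 9.38 and 9.32 in wildtype arsenite arrays. In ATF4-deficient neurons it read 9.33 and 9.38 with vehicle and 9.48 and 9.91 with arsenite. The ATF4-deficient arsenite pair lay above the other 8 arrays. The genotype difference under arsenite was 0.37 (SE 0.14, adjusted p = 0.324), and replicate 2 of that pair carried the higher value. Eif3i encodes a subunit with a WD-repeat propeller. It read 8.77 and 8.86 in wildtype vehicle, and 8.87, 8.94, 9.0 and 8.94 in wildtype arsenite arrays. In ATF4-deficient neurons it read 9.13 and 8.96 with vehicle and 9.07 and 8.87 with arsenite. Under vehicle both ATF4-deficient arrays were above both wildtype arrays (0.23, SE 0.11, adjusted p = 0.48), and under arsenite they overlapped (0.03).

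Number 4 holds mainly cap-binding and unwinding factors. None of its 13 genes, each read by its brightest probe set, reached an unadjusted limma p under 0.05 in any comparison. A second probe set of Eif4a2 did for genotype under arsenite (limma, unadjusted p = 0.0369). Means ran from 5.86 for Eif4e1b to 13.63 for Eif4a1, which encodes the RNA helicase of the cap-binding complex. Averaged arsenite differences lay between -0.15 and 0.13, and averaged genotype differences between -0.11 and 0.18. For genotype under arsenite 12 of the 13 lay above 0 with a median of 0.08, where the median of all genes was 0.02. Of all genes 54.3% lay above 0 there, and the 13 were read on the same arrays. Eif4b, a helicase cofactor, read 10.31 and 10.46 in wildtype vehicle, 10.36, 10.31, 10.06 and 10.33 in wildtype arsenite arrays, and 10.23 and 10.09 with vehicle and 10.40 and 10.16 with arsenite in ATF4-deficient neurons. The genotype difference under vehicle was -0.23 without overlap (SE 0.13, adjusted p = 0.585), and under arsenite 0.02. Eif4a3, a helicase of the exon junction complex, read 7.05 and 6.83 in wildtype vehicle, 7.03, 6.47, 6.95 and 7.00 in wildtype arsenite arrays, and 6.95 and 6.95 with vehicle and 7.01 and 7.26 with arsenite in ATF4-deficient neurons. Replicate 2 of wildtype arsenite lay low, and the interaction was 0.26 (SE 0.23, adjusted p = 0.898).

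Of the other genes with number 5, Eif5a and Eif5a2 encode the hypusine-bearing factors of elongation, and Eif5b the GTPase of subunit joining. Means of the number ran from 8.53 for Eif5a2 to 10.18 for Eif5. Eif5a read 9.96 and 9.79 in wildtype vehicle, 9.63, 9.84, 9.81 and 9.74 in wildtype arsenite arrays, and 9.85 and 9.54 with vehicle and 9.49 and 9.40 with arsenite in ATF4-deficient neurons. Both ATF4-deficient arsenite arrays were below the other 8. The genotype difference was -0.31 under arsenite (SE 0.11, adjusted p = 0.29) and -0.19 under vehicle (adjusted p = 0.662).

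Eif5b read 8.88 and 8.69 in wildtype vehicle, 8.50, 8.93, 8.81 and 8.60 in wildtype arsenite arrays, and 8.73 and 9.15 with vehicle and 8.91 and 9.60 with arsenite in ATF4-deficient neurons. The value of 9.60 on ATF4-deficient arsenite replicate 2 was the highest, and the groups overlapped in all comparisons. Its genotype difference under arsenite was 0.55 (SE 0.19, adjusted p = 0.295), and leaving out 1 array at a time or changing the processing moved it between 0.20 and 0.89. Eif6, which keeps the large subunit from joining early, had a mean of 8.31 and averaged differences of -0.14 for arsenite and 0.04 for genotype.

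The largest spread lay within the arsenite groups. The 6 genes with the largest SD within groups, picked after their values were seen, were Eif3b (0.32), Eif5a2 (0.30), Eif3d (0.28), Eif5b (0.28), Eif2s2 (0.24) and Eif4e (0.23), which encodes the cap-binding protein. Eif3b, a core eIF3 subunit, read 9.26, 9.84, 9.67 and 9.16 in wildtype arsenite arrays and 9.22 and 9.94 in ATF4-deficient arsenite arrays, against 9.38 to 9.62 on the 4 vehicle arrays. Replicates 2 and 3 of wildtype arsenite and replicate 2 of ATF4-deficient arsenite were above the other arsenite arrays in Eif3b, Eif5a2, Eif3d, Eif2s2 and Eif4e, and not in Eif5b. The same 3 arrays held the 3 highest Eif5 values, 10.57, 10.43 and 10.55. On the first principal component they were at 5.81, 5.96 and 29.4, and the remaining 3 arsenite arrays at -8.09, -8.8 and 6.95. Their astrocyte marker means were the lowest within their groups, 7.62 and 7.50 against 7.83 and 8.01 in wildtype arsenite and 7.06 against 7.40 in ATF4-deficient arsenite. The fibroblast gene Col1a1 read 8.14 and 7.93 on wildtype arsenite replicates 2 and 3, against 7.06 and 7.25 on replicates 1 and 4, and 7.15 and 7.12 in ATF4-deficient arsenite. The part of this array difference in any result was not tested. The sources used here name no batch.

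**Figure D5:**
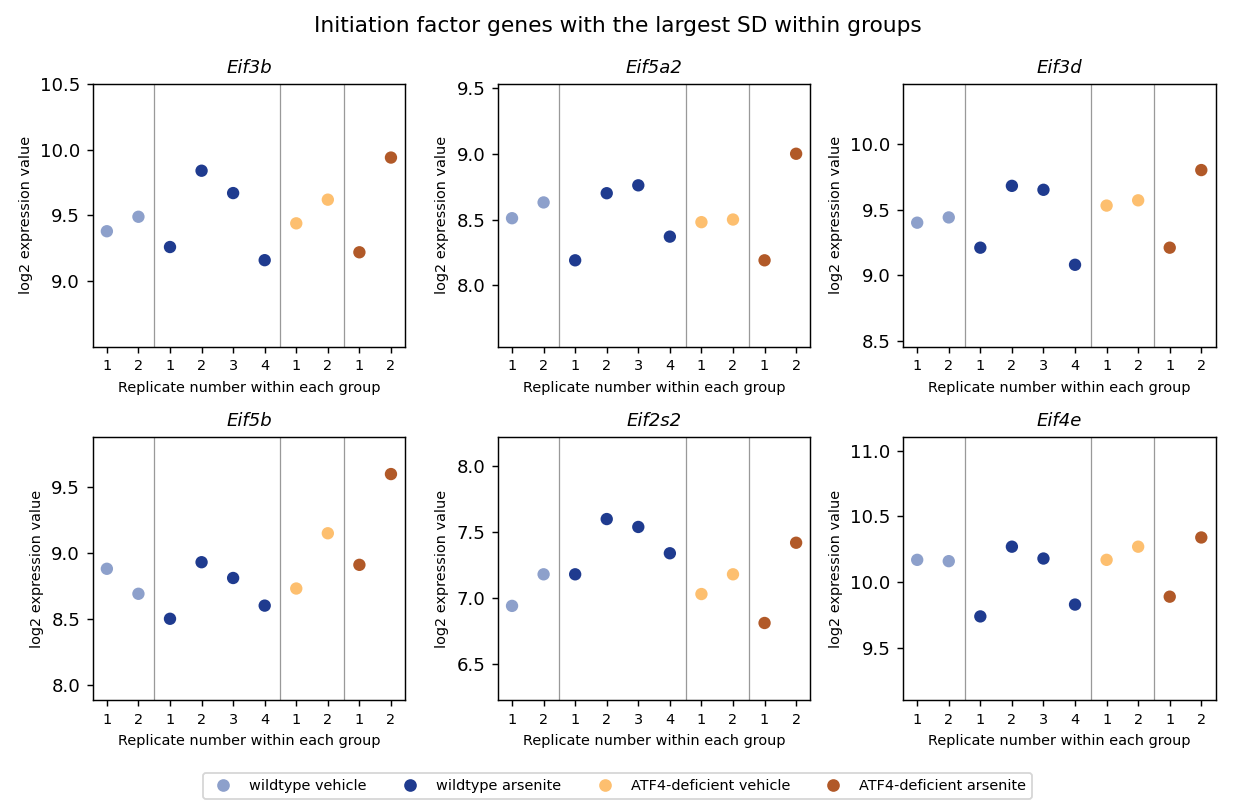
Values on the log2 scale of the 6 initiation factor genes with the largest SD within groups, by replicate number within each group (1 point per array, colour for group). Replicates 2 and 3 of wildtype arsenite and replicate 2 of ATF4-deficient arsenite lie above the other arsenite arrays in the Eif3b panel, at 9.84, 9.67 and 9.94 against 9.16 to 9.26.

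Genes that regulate eIF2 and eIF4E passed in 3 comparisons, all between genotypes. They were read in a list of 12 genes that also holds the eIF2 subunit genes Eif2s1, Eif2s3x and Eif2s3y. Of the 12 genes 9 had a probe set with a single gene symbol, and Eif2s1, Eif2s3x and Eif4ebp3 had none. With genotype averaged over treatments 1 was higher and 2 were lower past the threshold, against 1.82% of all genes. Eif2ak3 encodes PERK, the eIF2 kinase of the endoplasmic reticulum. It read 7.73 and 7.91 in wildtype vehicle, 8.04, 8.10, 7.96 and 7.96 in wildtype arsenite arrays, and 8.32 and 8.62 with vehicle and 8.74 and 8.78 with arsenite in ATF4-deficient neurons. Every ATF4-deficient array lay above every wildtype array, and the averaged difference was 0.70 (SE 0.08, adjusted p = 0.00268), a call kept under all alternatives run for it. Under vehicle alone the difference was 0.65 (adjusted p = 0.045), and the call was lost without any 1 array other than ATF4-deficient vehicle replicate 1, with equal array medians (adjusted p = 0.058) and with only the vehicle groups fitted (adjusted p = 0.247). Under arsenite alone it was 0.75 (adjusted p = 0.012). That call was lost without replicate 1 (0.77) or 2 (0.73) of ATF4-deficient arsenite, fits with 1 array in that group. It was also lost with the replicate number as a block (0.69, adjusted p = 0.0725). That fit gives no weight to wildtype arsenite replicates 3 and 4, whose numbers occur in no other group.

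Eif4ebp1 encodes a repressor that binds eIF4E and is a known ATF4 target. It read 7.30 and 8.44 in wildtype vehicle, 8.92, 9.62, 9.31 and 9.05 in wildtype arsenite arrays, and 7.38 and 6.51 with vehicle and 7.42 and 7.19 with arsenite in ATF4-deficient neurons. All 4 wildtype arsenite arrays were above the other 6. The averaged genotype difference was -1.42 (SE 0.24, adjusted p = 0.0155). It was lost as a call without wildtype vehicle replicate 2 (-1.14, adjusted p = 0.0727), ATF4-deficient vehicle replicate 2 (-1.20, adjusted p = 0.0874) or ATF4-deficient arsenite replicate 2 (-1.37, adjusted p = 0.0646). Under arsenite alone the genotype difference was -1.92 (adjusted p = 0.0298). That call was lost without wildtype arsenite replicate 2, 3 or 4 (adjusted p 0.0683 to 0.0923). It was also lost without replicate 1 (-2.03) or 2 (-1.81) of ATF4-deficient arsenite, fits with 1 array in that group. Array weights (adjusted p = 0.0968) and the replicate number as a block (adjusted p = 0.128) lost it as well. The block has the limit given for Eif2ak3. The arsenite difference of Eif4ebp1 in wildtype neurons was 1.36 (SE 0.31, adjusted p = 0.101), and the interaction was -1.0 (95% interval -2.04 to 0.05). Over the alternatives these moved between 0.79 and 1.92 and between -1.57 and -0.43. Averaged over genotypes the arsenite difference of Eif4ebp1 was 0.86 (limma adjusted p = 0.0833), and 0.57 to 1.14 over the alternatives. The highest came without wildtype vehicle replicate 2, a fit with 1 array in that group. Ppp1r15b, a subunit that directs a phosphatase to eIF2, had an averaged genotype difference of -0.37 (SE 0.08, adjusted p = 0.0368). That call was lost without any 1 array other than wildtype arsenite replicate 3, with adjusted p from 0.0517 to 0.181.

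In the other lists of translation genes 0 passed in any comparison: 24 of 28 partners of initiation, 15 of 16 elongation and release factors and 10 of 10 mitochondrial translation factors were measured. For arsenite averaged over genotypes 37.5%, 6.67% and 20% of these lists reached an unadjusted limma p under 0.05, against 16.1% of all genes. Among the 24 partners these were 9 genes, 6 above 0 and 3 below. The medians of the lists for arsenite averaged over genotypes were 0.05, -0.03 and 0.02, and for genotype averaged over treatments 0.04, -0.00 and 0.06. All genes had medians of -0.01 and 0.01, and the 44 initiation factor genes 0.02 and 0.03.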

How the data were processed

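The authors deposited log2 expression values of 10 Affymetrix arrays, made by robust multiarray average in Partek 6.6, per the submitters' processing notes. That method equalizes array distributions, so a shift shared by most transcripts would be removed. Scanner files, detection calls and array build were not used here. Of 41345 probe sets, 23521 had 1 symbol, and the brightest per gene gave 22180 genes; 3 of the 44 genes had more than 1 probe set. No filter on dim genes was applied.

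A limma 3.58.1 model (R 4.3.3) with 4 group means gave 7 contrasts: 4 between groups, their interaction and 2 averages with equal weights. It had 6 residual and 5.08 prior degrees of freedom. P-values were adjusted by Benjamini-Hochberg over all genes, threshold 0.05, and intervals are 95%. The number of arrays limits the precision.

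The members, lists and named genes were chosen with earlier results of these data known. Values by array are given for each of the 44 genes past the threshold in any contrast and, in each contrast, the 2 largest differences each way. Other genes named are Atf4 and up to 4 called genes of each list. Eif2s3y and Col1a1 did not pass and are named outside this rule. Lists are described by counts and medians, with no set test. Sequences are from RefSeq (GRCm38.p6). Lists of oligodendrocyte lineage, microglia, vascular and progenitor markers were also read; with genotype averaged over treatments 3 of 8, 0 of 10, 1 of 11 and 2 of 9 passed, and 2 of 10 neuron markers. With arsenite averaged over genotypes 1 of 8, 0 of 10, 0 of 11, 0 of 9 and 0 of 10 passed. Alternatives were a dim filter, probe set means, equal array medians, array weights, trend and robust moderation, only the contrast's groups, the replicate number as a block, leaving out each array and, added after seeing the data, each probe set tested on its own.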

Additional observations from a re-analysis of the deposited data

Results flagged for a closer look

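In the wildtype arsenite group, the only one with enough arrays for the check, 22 genes were checked and 2 had a value apart from the others. Eif4a3 was at 6.47 on replicate 2, with the nearest other array at 6.95, a gap of 0.858 of the group's range. Eif4b was at 10.06 on replicate 3, with the nearest at 10.31, a gap of 0.830 of the range. Both gaps exceed the 95% critical value of Dixon's test for 4 samples. Chance flags about 1 in 20 independent groups. The 22 genes share the same 4 arrays and were not drawn at random, so that rate is only a rough guide. Whether the flags came by chance was not tested. Eif4a3l1, the near copy of Eif4a3, was not among the 22. It read 9.57, 9.30, 9.55 and 9.58 in wildtype arsenite, also lowest on replicate 2.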

How the results depend on the processing

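For 6 of the 7 comparisons the count of initiation factor genes past the threshold was 0 as reported and under all alternatives run. For arsenite averaged over genotypes the count was 1 (Eif5) as reported and 0 with array medians made equal, where the smallest adjusted p was 0.0683; leaving out 1 array at a time gave 0 to 1. The dim filter, probe set means, array weights, trend and robust moderation and single probe sets kept the count at 1. Whether replicate numbers pair the arrays was not settled. The 12 correlations of deviations between same-numbered arrays lay between -0.056 and 0.403, with 5 over 0.1 and 2 below 0. In groups of 2 arrays the deviations of replicates 1 and 2 mirror each other, so some correlations repeat. The highest, 0.403, was between vehicle and arsenite in ATF4-deficient neurons. There Eif2s3y was low on replicate 1 (5.44 and 5.00) and high on replicate 2 (8.99 and 9.29) of both groups. Between wildtype vehicle and wildtype arsenite the correlations were 0.093 for replicate 1 and 0.019 for replicate 2. Eif2s3y read 8.68 and 8.66 on wildtype replicate 1, but 5.68 with vehicle and 8.30 with arsenite on replicate 2. By this gene, number 2 does not pair the wildtype arrays. With the replicate number as a block the count for arsenite averaged over genotypes was 1 (adjusted p = 0.0284) and 0 in the other comparisons, while Eif2ak3 (0.69, adjusted p = 0.0725) and Eif4ebp1 (-1.97, adjusted p = 0.128) no longer passed for genotype under arsenite. The block fits wildtype arsenite replicates 3 and 4 exactly, since no other group has those numbers, so these arrays add nothing to the contrasts. Among 1508 alternative values of the named initiation factor genes, 66 changed sign, all of differences that had not passed. The cause of these changes was not tested. Fewer arrays give fewer degrees of freedom, and 2 arrays in most groups limit what can be seen.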

Other observations

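Eif4a2, which encodes a helicase paralog of Eif4a1, had 3 probe sets, and they differed. The brightest, which stood for the gene, had a genotype difference under arsenite of 0.17 (limma adjusted p = 0.549 with each probe set tested on its own). The next brightest, with a mean of 9.32, differed by -0.58 (SE 0.24, unadjusted p = 0.0369, adjusted p = 0.385). It read 9.62, 9.45, 9.77 and 8.90 in wildtype arsenite and 8.47 and 9.25 in ATF4-deficient arsenite arrays, so the groups overlapped. The dimmest, with a mean of 7.08, differed by -0.19 (adjusted p = 0.555).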
